A study of Mus musculus with 12 samples.

Results

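The comparison described here sets mouse embryonic fibroblasts in which the reprogramming factors were switched on for 7 days against the same kind of cells in which they were not. It was chosen by its groups, not by any measured value: the 3 libraries with doxycycline and the scrambled hairpin and the 3 libraries without doxycycline and with the scrambled hairpin, 6 of the 12 libraries of the series. All cells were of strain C57BL/6 and carried FUW-OSKM, a lentiviral construct with Oct4 (gene Pou5f1), Sox2, Klf4 and Myc, and FUW-M2rtTA, the transactivator that doxycycline needs to turn the construct on. Both groups also carried a scrambled short hairpin, which the labels count as no knockdown, and were grown for 7 days in embryonic stem cell medium on irradiated feeder fibroblasts. The other 6 libraries are doxycycline-treated cells with hairpins against Trim28 or against Trim28 and Setdb1, and they enter the fit only to share its estimate of spread. In the cell type entry the labels call the induced libraries in vitro reprogrammed cells and 1 of the 3 uninduced libraries MEF. The other 2 have no such entry, but the titles of all 3 uninduced libraries name MEF. No group received doxycycline without the factor construct, so effects of the drug and of the factors cannot be told apart.

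Forced expression of Oct4, Sox2, Klf4 and Myc can turn fibroblasts into induced pluripotent stem cells over weeks, and only a small share of cells completes the path. In its early phase fibroblasts lose matrix and contractile genes and take on epithelial ones, a change known as the mesenchymal-to-epithelial transition. Cell division speeds up in this phase, and the pluripotency network is switched on late, gene by gene. Whole dishes were measured here, so a lower value in a dish can mean fewer cells of a type or less RNA per cell, and these cannot be told apart. No label states that feeder cells were taken away before extraction or that replicates came from separate cultures, so p-values measure the spread between these libraries, which may be technical.

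The 6 libraries held 11906701 to 19191649 counted reads, the fewest in induced library 2. Induced libraries had a read for 18310 to 19317 genes and uninduced libraries for 17799 to 17967. Induced library 2 and uninduced library 3 had the highest shares of mitochondrial reads of their groups, 2.37% and 2.27% against 1.82% to 2.01% in the other 4. Their deviations from their group means also ran together across genes (correlation 0.587). Counts were therefore also run without these 2 libraries, a choice made after the data were seen. Uninduced cells carried fibroblast markers at high levels: the fibronectin gene Fn1 stood at 20425, 19893 and 17723 CPM (reads per 1e6 counted reads, scaled with TMM factors) in libraries 1, 2 and 3, and the intermediate filament gene Vim at 4961, 4927 and 4773 CPM. The other fibroblast markers Col1a1, Col1a2, Col3a1, Thy1, Pdgfra, Pdgfrb and Dcn were each above 100 CPM in every uninduced library, also in those without a cell type entry.

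Across the 14520 genes with enough reads to test, 4743 rose (32.7% of those tested), 4741 fell (32.7%) and 5036 did not pass edgeR's quasi-likelihood test at an adjusted p of 0.05. A rise or fall below always means this test. The shares of 32.7% are the background for every list count below. Most of these changes were small: 6380, or 67.3% of the genes that moved, did so by less than 2-fold. Rises of at least 2-fold numbered 2061 (14.2% of tested genes) and falls of that size 1043 (7.18%). Scaling by library totals alone instead of TMM factors moved the median log2 change of all genes from -0.02 to 0.11 and made 61.7% of the calls rises, against 50% here.

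The sizes of rises and falls differed. Past 8-fold, 905 genes rose and 9 fell, and past 32-fold 523 rose and 0 fell. The largest fitted fall was -3.59 on the log2 scale. The largest fitted rise, 12.88, was that of the keratin gene Krt6b, which had no uninduced read and was at least 908.7-fold higher against a floor of 3 reads over the group. Presence in 1 group only was counted too: 339 genes had at least 10 reads over the induced libraries and none over the uninduced ones, and 7 genes the reverse. With at least 100 reads these counts were 75 and 0. Genes that rose at least 8-fold took 0.0654% ± 0.00262 of reads in uninduced libraries (SD, n = 3) and 2.57% ± 0.253 in induced ones, a description of genes chosen by these same values. Genes that fell at least 2-fold took 10.2% ± 0.0939 and 4.43% ± 0.336. Induced dishes thus gained many transcripts that had been near zero, while abundant fibroblast transcripts were reduced but still present.

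**Figure D1:**
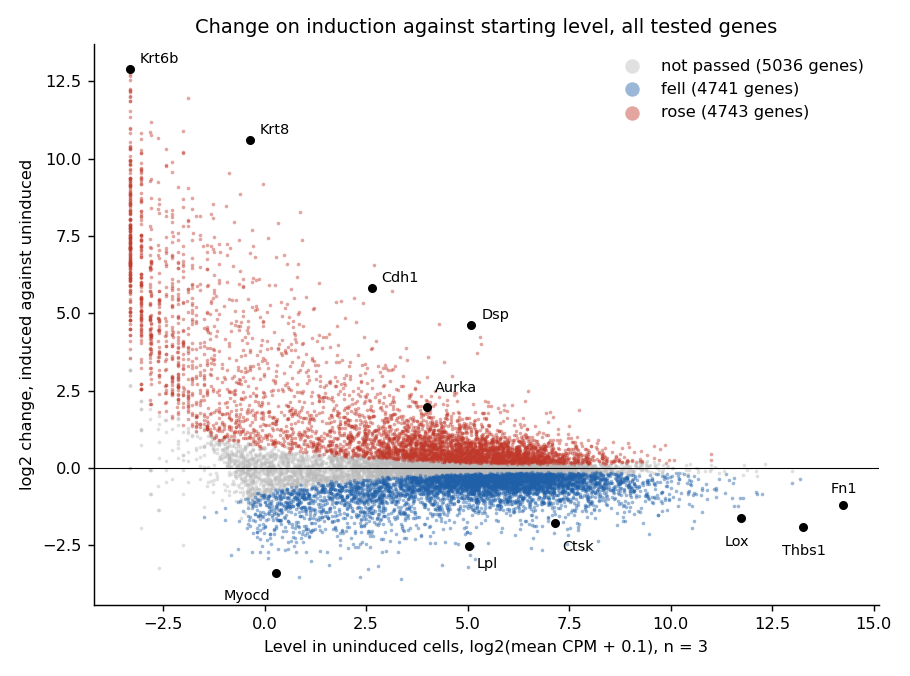
Each point is a tested gene; the x axis is its level in uninduced cells as log2(mean CPM + 0.1) over 3 libraries, the y axis its log2 change on induction, and colour shows whether it rose, fell or did not pass the test. Large rises sit at low starting levels, up to 12.88 for Krt6b, while no fall is beyond -3.59.

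**Figure D2:**
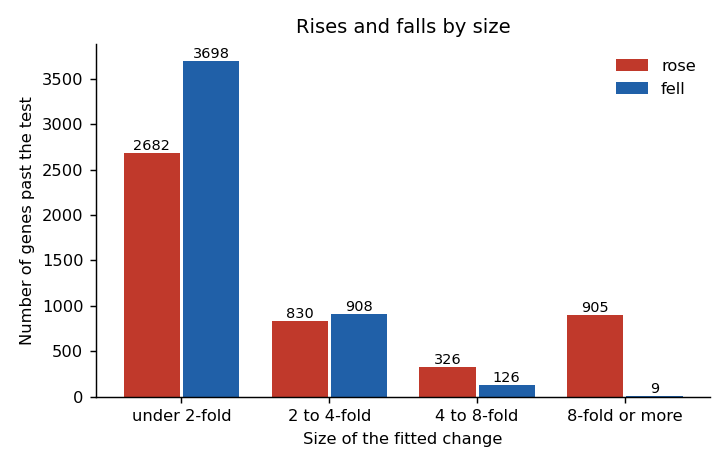
Bars give the number of genes past the test by the size of the fitted change, rises in red and falls in blue. Below 2-fold 3698 genes fell and 2682 rose; at 8-fold or more 905 rose and 9 fell.

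The 10 largest gains in mean CPM were led by Krt8, a keratin of simple epithelia, at 0.936, 0.386 and 0.712 CPM in the uninduced libraries and 942.1, 1042 and 1188 CPM in the induced ones. Next came Dsp (desmoplakin), the chaperone gene Hsp90ab1, the integrin gene Itgb4 and the keratin gene Krt17, with Scd2 (a fatty acid desaturase), the noncoding RNA Miat, Tgm2 (transglutaminase), Msln (mesothelin) and Podxl (podocalyxin) after them. Miat went from 6.08 to 6.68 CPM to 536.4 to 656.4 CPM, and Podxl from 1.37 to 2.01 CPM to 474.0 to 595.5 CPM. None of these 10 genes had overlapping libraries. They were picked for their gain, and the share among all tested genes was not counted, so this does not set them apart. The 10 largest losses were those of Fn1, then Thbs1 (thrombospondin), Col1a2, Lox, Vim, Col1a1, Sparc, Timp2, Bgn (biglycan) and Timp3. Vim codes for an intermediate filament inside the cell, and the others for secreted proteins of the matrix, an enzyme that cross-links it and inhibitors of the proteases that cut it. Of these 10, only Col1a1 had overlapping libraries, with 7621 to 10565 CPM in uninduced and 5451 to 8999 CPM in induced cells. Its call (edgeR adjusted p = 0.0348) was lost when any of induced libraries 2 or 3 or uninduced libraries 1 or 2 was left out, with adjusted p of 0.0709 to 0.166.

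Among genes with a read in every library and at least 10 CPM in the higher group, the largest falls were in genes other than the main matrix components. Rgs4, a brake on G-protein signalling, fell by 3.19 on the log2 scale and the endothelin receptor gene Ednrb fell by 3.14. The lipid droplet gene Plin4 fell by 2.94, Lgr5, an R-spondin receptor (-2.82), the matrix gene Abi3bp (-2.63) and Cdsn, corneodesmosin (-2.58). Ednrb had 19.8, 22.4 and 19.9 CPM without induction and 2.34, 2.51 and 2.25 CPM with it. Cdsn codes for an adhesion protein of cornified skin, and it fell while most keratinocyte genes rose. Genes without a read in induced cells were rare. With predicted genes left out, the 6 of highest uninduced CPM among them, Pld5, Ugt2b34, Trdn, Ttc6, Rgs21 and Chst8, had 9 to 13 reads over the 3 uninduced libraries and were not tested.

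The construct's own genes were read next. Pou5f1 stood at 20, 21 and 17.5 CPM in uninduced and 443.3, 473.8 and 544.0 CPM in induced libraries. Sox2 had 12.6, 13.7 and 6.86 CPM, then 177.0, 121.3 and 184.7 CPM. For Klf4 the values were 140.4, 128.8 and 120.9 CPM, then 474.5, 406.3 and 503.3 CPM. Myc, which fibroblasts also express, went from 97.4, 94.8 and 75.6 CPM to 482.3, 468.8 and 568.1 CPM. The groups did not overlap for any of the 4, and all 4 were highest in induced library 3. How many of all tested genes lacked overlap was not counted, so this does not set the 4 apart. Per kilobase of exon, induced levels were 216.6 CPM for Pou5f1, 186.4 for Myc, 151.3 for Klf4 and 78.3 for Sox2. The lengths are of all annotated exons of the cells' own genes, and the construct may hold less of each. This order is therefore no measure of factor dose. Reads from the vector and from the cells' own genes cannot be told apart where they share coding sequence.

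Of the 27 pluripotency transcription factors outside the construct 20 could be tested: 14 rose, 3 fell and 3 did not pass, with a median log2 change of 2.81 against -0.02 over all tested genes. Of the 20, 4 had no uninduced read and could enter the test only through reads in libraries with doxycycline. The count and median thus describe the list and do not set it apart. Sall4, a zinc finger factor of the core network, had no read in the uninduced libraries and 29.7, 26.8 and 37.9 CPM in the induced ones, at least 506.0-fold higher. Tfcp2l1, a naive-state factor, went from 1.5, 1.61 and 1.16 CPM to 37.5, 42.9 and 45.3 CPM. Nanog rose by 4.82 ± 0.41 (SE) but reached only 5.32, 7.53 and 9.25 CPM. Esrrb and Mybl2 rose by 6.89 ± 0.48 and 3.33 ± 0.13. Zfp42 (Rex1) and Utf1, used as late markers of reprogramming, had no uninduced reads and 2.10 to 3.45 CPM and 1.13 to 2.95 CPM after induction. Late-stage genes were thus detected at low levels, and Dppa2 had 1 read without and 5 with induction, too few to test. Klf5 fell (-0.60 ± 0.19), a call that was lost without uninduced library 1 (edgeR adjusted p = 0.05), and so did Tcf7l1 (-0.48 ± 0.12), a repressor in the Wnt pathway.

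Among effectors and surface markers of stem cells 16 of 19 tested rose, 1 fell and 2 did not pass, with a median of 5.05, or 4.60 with genes of no uninduced read at their bounds. Here 4 of the 19 had no uninduced read, and the same limit holds. L1td1, an RNA-binding protein of pluripotent cells, had 0.0624, 0.193 and 0.194 CPM in uninduced and 152.3, 213.1 and 197.9 CPM in induced libraries. Tdh, the threonine dehydrogenase of mouse stem cells, and Lin28a, a blocker of let-7 maturation, had no uninduced read and were at least 566.2-fold and 442.9-fold higher. Alpl, the alkaline phosphatase stained in colonies, went from 0.514 to 1.25 CPM to 19.5 to 23.4 CPM. Fbxo15, a marker used to select reprogrammed cells, reached only 0.972 to 1.55 CPM from 0.129 to 0.194 CPM. Dppa3 (Stella), a germline and naive-state gene, had 0.200 to 0.243 CPM after induction and was not tested. Spp1 (osteopontin) was the only member to fall, by 0.20 on the log2 scale. Its libraries overlapped, and leaving out induced library 1 or 3 or uninduced library 2 or 3 gave edgeR adjusted p of 0.0513 to 0.135.

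Keratins are the intermediate filaments of epithelia. Of 43 keratin genes with a count 18 could be tested; 16 rose and 2 did not pass, with a median of 7.00, or 5.75 at the bounds. Beside these, 32.7% of all tested genes rose. A gene this rare in uninduced cells could enter the test only through its reads in libraries with doxycycline, so such counts describe the list and do not set it apart. Summed over the family, keratins took 0.00324% ± 0.000267 of reads in uninduced and 0.350% ± 0.0328 in induced libraries (SD, n = 3). Krt14 of basal stratified epithelium went from 0.874, 0.643 and 1.1 CPM to 497.4, 479.3 and 537.0 CPM. Its usual partner in basal cells, Krt5, stayed rare, with 1 read in each uninduced library and 0.234, 0.972 and 0.750 CPM after induction, 9.83 times higher (95% counting interval 3.07 to 50.2). Krt17 of stressed and developing epithelium had 0.187, 0.193 and 0.129 CPM without and 673.4, 647.8 and 782.8 CPM with induction. Per kilobase, induced levels ran from 540.0 CPM for Krt8 through 452.2 for Krt17 and 287.0 for Krt14 to 36.1 for Krt18, the partner of Krt8, and 0.297 for Krt5. Krt10 (-0.23) and Krt20 (0.25), named after their values were seen, were the 2 that did not pass.

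Genes of cell junctions moved with the keratins. In the adhesion and polarity list 29 of 37 tested rose, 2 fell and 6 did not pass, with a median of 3.28. The share of all tested genes that rose was 32.7%. Cdh1 (E-cadherin) went from 5.62, 6.30 and 6.41 CPM to 299.0, 351.0 and 379.0 CPM. Epcam, an epithelial adhesion molecule, had 0.0624, 0.129 and 0.0647 CPM without induction and 67.9, 84.3 and 93.0 CPM with it. The tight junction genes Cldn4 and Cgn rose by 10.18 ± 0.22 and 6.95 ± 0.16, and Crb3, a polarity gene with 3 uninduced reads, was 687.7 times higher (95% counting interval 235.0 to 3337.2). Ctnnb1, whose protein beta-catenin links cadherins to actin, fell from 1005 to 1055 CPM to 743.0 to 832.1 CPM. E-cadherin and Epcam thus rose from low levels while the abundant Ctnnb1 was lower in all induced libraries.

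Desmosome and hemidesmosome genes, which anchor keratins to the membrane and to the basement membrane, rose in 20 of 21 cases. Of all tested genes 32.7% rose. Cd151 (0.23) did not pass, although it did without induced library 2 (edgeR adjusted p = 0.00503) or without uninduced library 1 or 2 (0.0409 and 0.0336). Dsp had 32.2, 33.2 and 36.2 CPM in uninduced and 735.4, 913.9 and 836.1 CPM in induced libraries. Itgb4, the integrin chain of hemidesmosomes, went from 42.3, 41.6 and 34.6 CPM to 770.8, 672.4 and 803.2 CPM. The cornified-envelope linker gene Evpl and the plakophilin gene Pkp3 rose by 6.89 ± 0.18 and 7.96 ± 0.28. Jup (plakoglobin), already at 68.6 to 92.8 CPM, rose by 2.17 ± 0.11. Of 12 tested membrane proteases and inhibitors of epithelia 10 rose and 2 did not pass. Of the 12, 3 had no uninduced read and could be tested only through reads in libraries with doxycycline. The rises included St14 (matriptase, 5.97 ± 0.14), its inhibitor Spint1 (7.98 ± 0.23), Spint2 (3.84 ± 0.13) and the kallikrein Klk10 (5.41 ± 0.089).

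Regulators of the epithelial state also appeared. Of 18 tested epithelial transcription and splicing regulators 14 rose, 2 fell (1 without induced library 3) and 2 did not pass, with a median of 4.41, or 4.34 at the bounds. Of the 18, 3 had no uninduced read and could be tested only through reads in libraries with doxycycline. Esrp1, which sets epithelial splicing, had no uninduced read and 42.7, 55.9 and 55.3 CPM after induction, at least 800.9-fold higher. The factor gene Ehf rose by 7.69 ± 0.23. Grhl2 and Ovol1, activators and keepers of epithelial genes, each had 1 uninduced read and 14.3 to 18.4 CPM and 19.9 to 25.1 CPM after induction. Trp63, the master factor of stratified epithelium, did not pass: it had 5.49, 4.30 and 4.14 CPM without and 4.44, 4.13 and 2.50 CPM with induction, a log2 change of -0.36 ± 0.24 (edgeR adjusted p = 0.198). So Trp63 did not pass in dishes where most tested keratins rose. Foxq1, another factor of the list, fell (-1.56 ± 0.37).

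**Figure D3:**
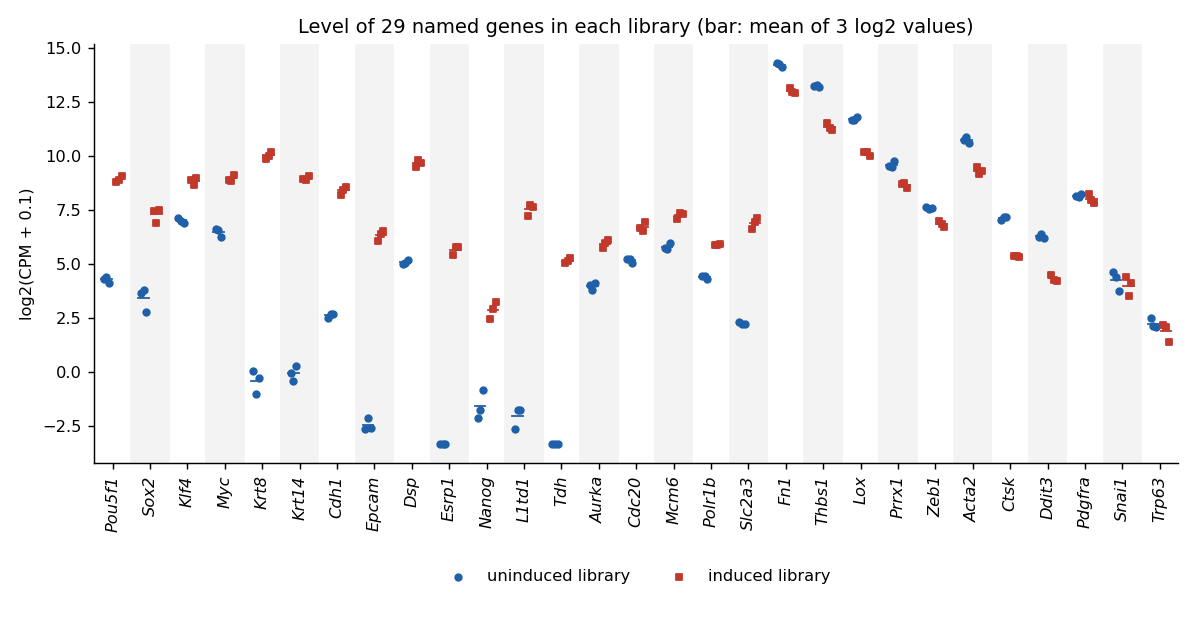
Each point is 1 library: blue circles are the 3 uninduced and red squares the 3 induced libraries, on a log2(CPM + 0.1) scale, with a bar at the mean of the log2 values. Factor, epithelial and stem cell genes lie higher in all induced libraries, matrix and contractile genes lower, and Pdgfra, Snai1 and Trp63 overlap.

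The epithelial promoters are shown because Snail and Zeb repressors, which fibroblasts express, bind the letters CAGGTG on either strand. Promoters were taken from RefSeq (build GRCm38.p6) as 250 bases before to 50 after each start site. Of the 38 adhesion and polarity genes 23 had an entry, and 16 of these (69.6%) held CAGGTG, against 21.2% of all tested genes with an entry. Of 28 keratin genes with an entry 12 (42.9%) held it. The 200 bases before the start site are printed 5′ to 3′ for Epcam (chr17:87635779-87635978, plus strand) and Krt8 (chr15:102004343-102004542, minus strand), with CAGGTG or its reverse complement in capitals. In Epcam the letters begin 187 and 19 bases before the start, and in Krt8 111 bases before it. A match is a description of letters, not of binding.
Epcam: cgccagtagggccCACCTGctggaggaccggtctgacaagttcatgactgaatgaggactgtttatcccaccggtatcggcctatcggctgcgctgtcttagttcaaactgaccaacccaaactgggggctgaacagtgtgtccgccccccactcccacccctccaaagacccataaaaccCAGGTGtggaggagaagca
Krt8: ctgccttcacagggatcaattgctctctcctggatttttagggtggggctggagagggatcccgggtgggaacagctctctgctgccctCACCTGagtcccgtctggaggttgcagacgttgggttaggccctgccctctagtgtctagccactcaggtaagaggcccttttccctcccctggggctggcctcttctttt

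Regulators of the mesenchymal state were lower in induced dishes. Of 42 tested members 31 fell, none rose (1 rose without induced library 2) and 11 did not pass, with a median of -0.74, beside 32.7% of all genes that fell. Zeb1 and Zeb2, repressors of E-cadherin, went from 185.3 to 200.4 CPM to 104.2 to 125.9 CPM and from 92.7 to 105.9 CPM to 45.6 to 50.6 CPM. Snai2 fell by 1.01 on the log2 scale. Snai1 had 24.5, 21.1 and 13.5 CPM without and 20.9, 11.3 and 17.2 CPM with induction, overlapping values that did not pass (-0.24 ± 0.20); without uninduced library 3 it fell (edgeR adjusted p = 0.0373). Prrx1, a limb and connective tissue homeobox gene, had 749.1, 727.1 and 882.6 CPM, then 418.9, 435.6 and 363.0 CPM. Twist1 fell by 0.58 and Ebf1 (-1.22). Of 34 tested Hox genes, which record position along the body axis, 25 fell, 1 rose and 8 did not pass, with a median of -0.58. Hoxc8 (-1.39 ± 0.12) and Hoxb9 (-1.04 ± 0.12) were among those that fell, and Hoxa9 was the only one to rise (0.39 ± 0.10).

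The extracellular matrix is the main product of fibroblasts. Of 43 matrix glycoproteins and proteoglycans 30 fell, 3 rose and 10 did not pass, with a median of -0.85, and their share of reads went from 5.50% ± 0.245 to 2.95% ± 0.278. Scaling by library totals raised the number that rose from 3 to 7, and leaving out induced library 2 raised it to 5. Fn1 had 9264, 8181 and 7876 CPM in induced libraries, against 17723 CPM or more in each uninduced one. Thbs1 went from 9815, 10008 and 9373 CPM to 2944, 2514 and 2344 CPM, and Ccdc80 and Efemp1 fell too (-1.70 and -1.52). Postn (periostin), Sparc and Tnc (tenascin C) fell (-0.64, -0.85 and -0.94). Dcn (decorin) moved the other way, from 117.2, 125.1 and 142.1 CPM to 231.6, 233.1 and 231.3 CPM, with no overlap.

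Collagen chains moved in both directions. Of 38 tested chains 22 fell, 8 rose and 8 did not pass, where 32.7% of all tested genes fell and 32.7% rose. Their median was -0.53. Col10a1 fell from 165.8 to 185.4 CPM to 39.1 to 51.2 CPM, and Col4a5 of basement membrane and Col8a1 fell (-1.33 and -1.24). Col3a1 did not pass, at 4320 to 4654 CPM in uninduced and 3108 to 4505 CPM in induced libraries, but fell without induced library 1 (edgeR adjusted p = 0.00782), with the replicate number as a block (0.0122) and with no filter on low counts (0.000454). Col17a1, the hemidesmosome collagen, had 0.687, 0.964 and 0.129 CPM without and 24.5, 18 and 18.4 CPM with induction. Of 20 enzymes that cross-link or process collagen 14 fell, 1 rose (2 without induced library 2) and 5 did not pass. Lox, which cross-links collagen and elastin, went from 3325, 3273 and 3589 CPM to 1157, 1171 and 1021 CPM. The prolyl hydroxylase genes P4ha2 and P4ha3 fell (-0.83 and -1.60) and the collagen chaperone gene Serpinh1 (-0.56), while Plod2 did not pass (0.04) and Pcolce2 rose by 0.91 ± 0.075. Of 20 metalloproteinases and inhibitors 12 fell, among them Mmp13 (-1.70 ± 0.12), Timp1 (-0.93 ± 0.059) and Timp3 (-1.23 ± 0.069), 5 did not pass and 3 rose. Mmp9, of those that rose, went from 0.259 to 0.874 CPM to 4.53 to 10.4 CPM.

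Of the contractile and cytoskeletal genes 25 of 27 fell, none rose and 2 did not pass, with a median of -0.87. Beside them, 32.7% of all tested genes fell. Acta2, the smooth muscle actin of activated fibroblasts, had 1726, 1925 and 1586 CPM without and 721.6, 570.5 and 645.0 CPM with induction. Tagln (transgelin) went from 843.3, 924.7 and 886.8 CPM to 335.3, 336.7 and 337.9 CPM. Smooth muscle genes of lower level fell further, Myh11 (-2.42) and Lmod1 (-1.90), and Cnn1 fell by 1.09. Their coactivator Myocd went from 0.712 to 1.54 CPM to 0.05 to 0.243 CPM. Of 19 fibroblast surface and filament genes 12 fell, 2 rose and 5 did not pass. Thy1, a surface marker lost early in reprogramming, fell from 273.4, 293.7 and 280.7 CPM to 160.0, 136.5 and 143.8 CPM. Cdh2 (N-cadherin), Cdh11 and Vcam1 fell (-0.92, -0.98 and -1.08). The PDGF receptors parted: Pdgfrb fell by 1.22, while Pdgfra did not pass, with 276.0 to 303.3 CPM and 227.3 to 306.6 CPM. Nt5e (CD73) rose from 24.2 to 30.2 CPM to 119.2 to 164.1 CPM.

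**Figure D4:**
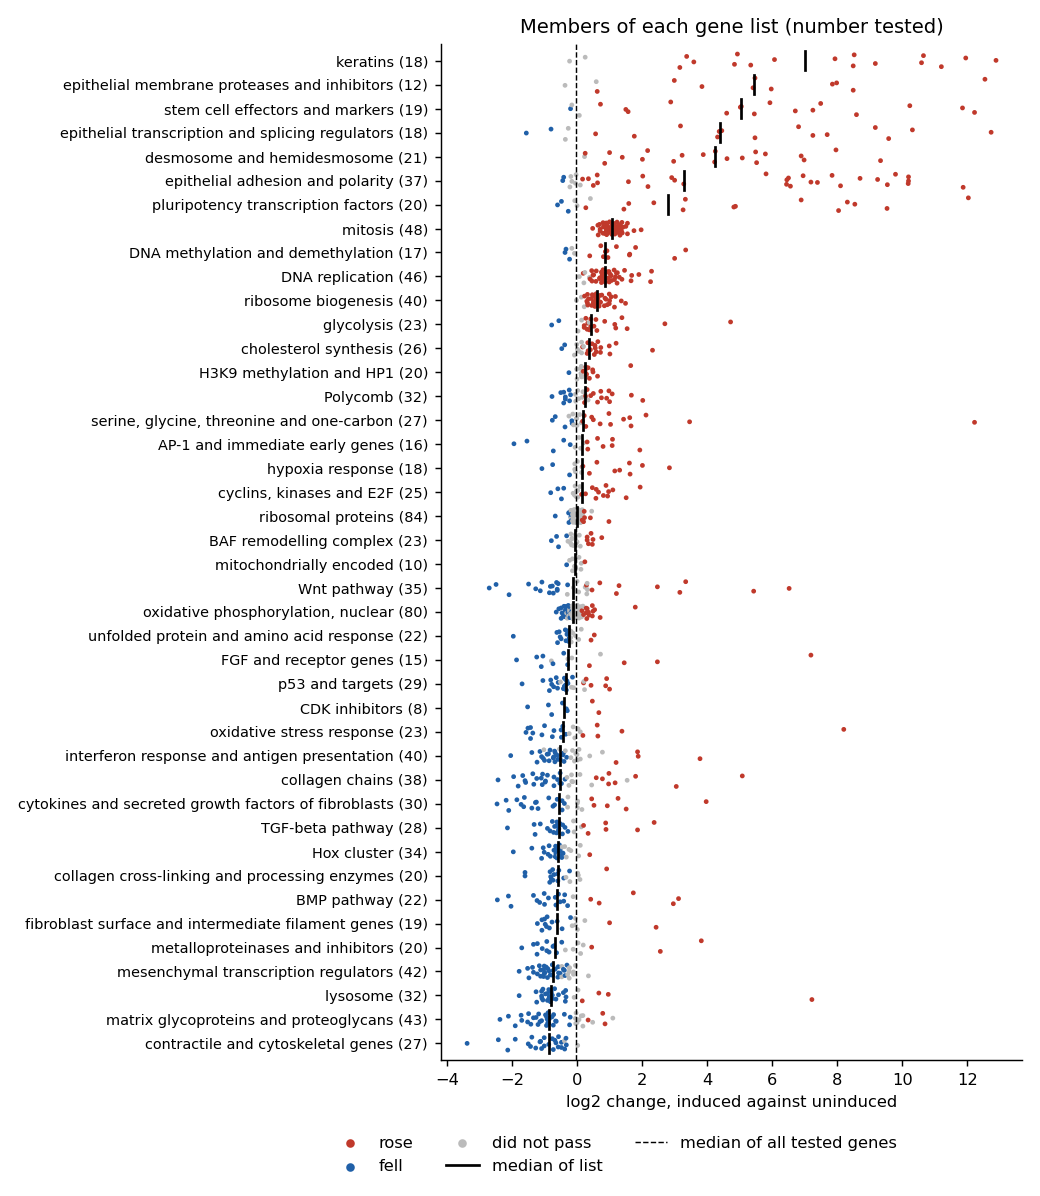
Each row is a gene list with its number of tested members, each point a member at its log2 change (red rose, blue fell, grey did not pass), the black bar the list's median and the dashed line the median of all tested genes (-0.02). Epithelial and stem cell lists spread far to the right, mitosis and replication members cluster near 1, and matrix, lysosome and contractile lists lie to the left.

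Growth factor signalling was read by role. In the TGF-beta pathway, which holds cells in the mesenchymal state, 19 of 28 genes fell, 6 rose and 3 did not pass. The shares of all tested genes were 32.7% falling and 32.7% rising. The ligand genes Tgfb1, Tgfb2 and Tgfb3 fell (-0.83, -0.72 and -0.57), the receptor gene Tgfbr2 (-0.53) and the signal transducer gene Smad3 (-0.44). Its target gene Ctgf fell by 1.13. Acvr1b, an activin and Nodal receptor, rose from 14.7 to 18.2 CPM to 54.7 to 68.4 CPM, and Fst, an activin antagonist, fell by 1.29. In the BMP pathway 16 of 22 fell, 5 rose and 1 did not pass. Bmp2 rose from 1.62, 1.80 and 2.39 CPM to 17.1, 17.6 and 16.1 CPM, whereas Bmp4 and the receptor genes Bmpr1a and Bmpr1b fell (-0.67, -0.65 and -2.03). The target genes split: Id1 and Id3 fell (-0.38 and -1.01), and Id2 and Id4, added after their values were seen, rose by 0.42 and 0.68. The antagonist gene Grem1 fell too (-1.15), so receptors and inhibitors of this pathway were both among its falls. Ligand genes went both ways: Bmp6 and Bmp7 rose like Bmp2 (1.73 and 2.96), and Bmp5 fell like Bmp4 (-1.34).

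In the Wnt pathway 16 of 35 genes fell, 10 rose and 9 did not pass, with a median of -0.11, where 32.7% of all tested genes fell and 32.7% rose. Ligand genes were among both its rises and its falls. Wnt7a, an epithelial ligand, had 0.687, 0.386 and 0.388 CPM without and 47.4, 44.0 and 44.9 CPM with induction, and Wnt7b rose by 5.43 ± 0.34. Wnt5a fell by 0.85, the receptor gene Fzd7 (-1.13) and the inhibitor genes Sfrp1 and Sfrp4 (-1.49 and -2.09). Axin2, a general target of the pathway, rose from 6.79 to 8.29 CPM to 17.2 to 20.3 CPM. Of 15 tested FGF genes and receptors 7 fell, 4 rose and 4 did not pass: Fgfr2 fell from 94.0 to 101.9 CPM to 24.5 to 30.2 CPM, Fgf7 (-1.24) and the feedback inhibitor gene Spry2 (-1.05). Fgfbp1, a carrier of FGFs, rose by 7.19 ± 0.19, and Fgf4, a stem cell ligand with 1 uninduced read, reached 9.64 to 12.3 CPM.

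Secreted factors of fibroblasts fell in 18 of 30 tested cases, rose in 6 and did not pass in 6. Tnfrsf11b (osteoprotegerin) had 176.1, 167.0 and 179.4 CPM without and 31.8, 36.4 and 27.5 CPM with induction. Ptx3 (pentraxin), Il1rn (an interleukin-1 antagonist), Cxcl12 and Il6 fell (-2.18, -1.72, -1.39 and -1.85). Cxcl1, a chemokine of inflamed fibroblasts, did not pass (0.15 ± 0.34). Cxcl16 rose from 3.25 to 3.62 CPM to 51.5 to 54.8 CPM. All 6 IGF binding proteins could be tested; 4 fell, 2 did not pass, and Igfbp3 went from 429.7 to 504.7 CPM to 178.4 to 233.1 CPM. Of 16 immediate early genes 7 rose, 4 did not pass and 5 fell, beside 32.7% of all tested genes that rose and 32.7% that fell. Without uninduced library 3 the split was 5 and 5. Fosb and Fos rose by 1.93 ± 0.17 and 1.09 ± 0.12, Jun by 0.80 ± 0.097 and Atf3 by 1.08 ± 0.091, whereas Egr2 fell by 1.54 and Fosl1 (-0.41).

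Cell division genes rose together, beside 32.7% of all tested genes that rose. All 48 tested mitosis genes rose, by 0.48 to 1.97 on the log2 scale with a median of 1.08, and their share of reads went from 0.152% ± 0.00927 to 0.351% ± 0.0293. Aurka, the spindle pole kinase, had 16.3, 13.9 and 17.5 CPM in uninduced and 53.3, 63.1 and 70.3 CPM in induced libraries. Cdc20, which turns on the anaphase-promoting complex, went from 37.8, 37.7 and 33.0 CPM to 101.0, 91.8 and 124.0 CPM. The cyclin gene Ccnb1 and its kinase gene Cdk1 rose by 1.41 ± 0.099 and 0.81 ± 0.068. Anln and Incenp, genes of cytokinesis and the chromosomal passenger complex, rose by 1.26 ± 0.073 and 1.15 ± 0.073. The proliferation marker Mki67 rose by 1.06 ± 0.097. Of 46 DNA replication genes 42 rose, none fell and 4 did not pass, with a median of 0.87. Mcm10 and Cdc6, which load and start the replication helicase, went from 7.2 to 7.8 CPM to 29.0 to 41.3 CPM and from 5.82 to 5.99 CPM to 19 to 24.8 CPM. Pcna, the sliding clamp, rose by 0.93 ± 0.068. Groups did not overlap for any gene named in this paragraph. Genes were named partly by their small p, so this lack of overlap does not set them apart.

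Promoters of these genes are shown because the cell cycle homology region (TTTGAA) and the CCAAT box are known elements of late cell cycle genes and E2F sites (TTCCCGC) of replication genes. Of the 39 mitosis genes with a RefSeq entry 29 (74.4%) held TTTGAA, against 14.2% of tested genes with an entry. Also 29 of the 39 (74.4%) held CCAAT, against 42.7%, and so did 22 of 36 replication genes (61.1%). Of 36 replication genes with an entry 14 (38.9%) held TTCCCGC, against 9.54%. Among the mitosis genes 1 promoter (2.56%) held it. Both strands were searched, and no motif contains another. The 200 bases before the start site follow for Cdc20 (chr4:118437344-118437543, minus strand), Cdk1 (chr10:69352913-69353112, minus strand) and Cdc6 (chr11:98907951-98908150, plus strand), with the motifs in capitals.
Cdc20: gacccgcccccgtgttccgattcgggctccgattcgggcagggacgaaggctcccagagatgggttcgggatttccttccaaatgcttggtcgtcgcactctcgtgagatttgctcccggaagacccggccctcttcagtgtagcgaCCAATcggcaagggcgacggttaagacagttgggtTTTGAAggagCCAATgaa
Cdk1: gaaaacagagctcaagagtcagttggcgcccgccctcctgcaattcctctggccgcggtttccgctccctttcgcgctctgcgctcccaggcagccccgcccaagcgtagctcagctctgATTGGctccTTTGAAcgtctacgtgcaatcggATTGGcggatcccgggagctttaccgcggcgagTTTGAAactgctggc
Cdc6: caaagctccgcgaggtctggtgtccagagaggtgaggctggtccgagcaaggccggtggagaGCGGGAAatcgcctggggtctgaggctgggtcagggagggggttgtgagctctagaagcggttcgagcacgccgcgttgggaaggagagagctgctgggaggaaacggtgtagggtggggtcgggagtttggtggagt
In Cdc20, TTTGAA begins 18 bases and CCAAT 53 and 8 bases before the start. Cdk1 holds TTTGAA at 71 and 15 bases and CCAAT in reverse at 80 and 48 bases, and Cdc6 holds TTCCCGC in reverse at 138 bases.

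Regulators that start the cycle moved in both directions. Of 25 cyclins, kinases and E2F members 13 rose, 8 did not pass and 4 fell, with a median of 0.14. Over all tested genes 32.7% rose and 32.7% fell. Ccnd1 (cyclin D1) did not pass, at 1289 to 1342 CPM and 1221 to 1315 CPM, and Ccnd2 fell from 1482 to 1563 CPM to 800.4 to 904.7 CPM. Cdc25a, a phosphatase that activates the kinases, rose by 1.51 ± 0.077 and E2f2 by 1.94 ± 0.20. All 8 CDK inhibitors passed, 6 falling and 2 rising, or 1 rising without uninduced library 2. Cdkn2b (p15), a barrier to reprogramming, had 97.7, 96.7 and 93.9 CPM without and 35.5, 29.9 and 34.7 CPM with induction. Cdkn2a, its neighbour, which codes for p16 and Arf, went from 155.9, 162.4 and 120.5 CPM to 94.6, 65.3 and 78.7 CPM. Cdkn1a (p21) fell by 0.45, and Cdkn2d rose by 0.67 ± 0.15. Of 29 tested p53 genes and targets 18 fell, 6 rose and 5 did not pass. Trp53 itself did not pass (0.23 ± 0.11), but rose without induced library 2 (edgeR adjusted p = 0.00433) or without uninduced library 1 or 2 (0.0473 and 0.0445), while its targets Mdm2, Fas and Ccng1 fell (-1.05, -1.69 and -0.81). Perp, a p53 target that is also a desmosome gene, rose by 1.00 ± 0.091.

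Genes that build ribosomes and genes of the ribosome itself were read apart. Of 40 ribosome biogenesis genes 37 rose, none fell and 3 did not pass, beside 32.7% of all tested genes that rose. Their median was 0.60. Polr1b, a subunit of RNA polymerase I, went from 22, 21.8 and 19.9 CPM to 59.4, 58.9 and 60.6 CPM. The nucleolar genes Rrp1b and Nolc1 rose by 1.36 ± 0.075 and 1.15 ± 0.075, Fbl (fibrillarin) by 0.93 ± 0.098 and Npm1 by 0.60 ± 0.11. Of the proteins of the ribosome, 71 of 84 tested ribosomal protein genes did not pass, 6 rose and 7 fell, with a median of -0.01. With scaling by library totals 23 of them rose and 1 fell, so their direction rests on the scaling. Leaving out induced library 2, uninduced library 1 or uninduced library 2 left 4, 3 and 3 falls.

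Glucose uptake and glycolysis genes were mostly higher. Of 23 glycolysis genes 18 rose, 3 did not pass and 2 fell, with a median of 0.42. The glucose transporter gene Slc2a3 went from 4.81, 4.50 and 4.59 CPM to 99.9, 125.6 and 140.1 CPM, and Slc2a1 rose by 1.16 ± 0.11. Hk2 and Pfkp, enzymes of the first committed steps, rose by 1.38 ± 0.099 and 1.19 ± 0.11. Ldha rose by 0.27 ± 0.068 while Ldhb, the other lactate dehydrogenase gene, fell from 48.3 to 55.8 CPM to 27.0 to 34.3 CPM. Nuclear genes of oxidative phosphorylation showed no shared direction: 42 of 80 did not pass, 24 fell and 14 rose, and with scaling by library totals 21 rose and 12 fell. Over all tested genes 32.7% fell and 32.7% rose. Of threonine, serine, glycine and one-carbon genes 14 of 27 rose, 8 did not pass and 5 fell, with Gcat, which acts after Tdh, up by 1.66 ± 0.15, and Gldc, of glycine cleavage, by 3.46 ± 0.35. The falls here numbered 3 with scaling by library totals and without induced library 3. Of 26 cholesterol synthesis genes 17 rose, 7 did not pass and 2 fell. Pmvk, a kinase of the mevalonate pathway, rose from 13.9 to 14.7 CPM to 58.8 to 83.3 CPM.

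Lysosome genes, which break down proteins, lipids and matrix, were mostly lower. Of 32 tested 26 fell, 4 rose and 2 did not pass, beside 32.7% of all tested genes that fell. The median was -0.80. Ctsk, a collagen-degrading cathepsin, had 133.4, 144.7 and 144.5 CPM in uninduced and 41.8, 40.8 and 40.3 CPM in induced libraries. Hexa, a hydrolase of glycolipids, fell (-1.26), and Lamp1, a membrane protein of lysosomes, likewise (-0.87). Tfeb, a factor known to switch lysosome genes on and singled out after its value was seen, was among the 4 that rose (0.96). Laptm5, a lysosomal membrane gene of blood cells, rose by 7.22 ± 0.18.

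In stress responses more genes fell than rose, apart from hypoxia. Over all tested genes 32.7% fell and 32.7% rose. Of 22 genes of the unfolded protein and amino acid response 13 fell, 2 rose and 7 did not pass. Ddit3 (CHOP), a death-promoting factor of this response, went from 77.3, 83.9 and 74.8 CPM to 22.7, 19.3 and 18.5 CPM. Of 23 oxidative stress genes 13 fell, 5 rose and 5 did not pass: Nqo1 and Hmox1, classic Nrf2 targets, fell (-1.43 and -1.36), Gsr rose by 1.38 ± 0.086, and Nfe2l2, the gene of Nrf2, did not pass (-0.12). Of 18 hypoxia genes 9 rose, 6 did not pass and 3 fell. Hif1a fell by 0.75 and Epas1 rose by 1.61 ± 0.10, the genes of HIF-1 alpha and HIF-2 alpha. In the interferon and antigen presentation list 23 of 40 fell, 4 rose and 13 did not pass. B2m, the invariant chain of MHC class I, went from 546.2, 561.0 and 579.3 CPM to 312.5, 328.5 and 288.3 CPM, Tap1 and Irgm1 fell (-1.04 and -1.23), and Bst2 rose by 1.20 ± 0.12.

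Chromatin genes moved member by member. Of 17 DNA methylation and demethylation genes 12 rose, 2 did not pass and 3 fell; with scaling by library totals 1 fell. Dnmt3b, a de novo methyltransferase, went from 2.68, 2.25 and 2.20 CPM to 21.6, 23.3 and 27.6 CPM. Uhrf1 and Dnmt1, which copy methylation after replication, rose by 1.62 ± 0.094 and 0.87 ± 0.057. Tet2, a demethylase gene, rose by 1.80 ± 0.10, Tet1 by 0.92 ± 0.22 and Tet3 by 0.73 ± 0.083. Of 32 Polycomb genes 15 rose, 8 did not pass and 9 fell, and 5 fell with scaling by library totals. Cbx2, Pcgf5 and Ezh2, a reader, a subunit and the methyltransferase of these repressors, rose by 2.02 ± 0.13, 1.67 ± 0.14 and 1.00 ± 0.10. Phf1 fell by 0.77. Of 20 genes of H3K9 methylation, its removal and the HP1 proteins 11 rose, 8 did not pass and 1 fell. Kdm3b, Cbx5 and Suv39h2, a demethylase, an HP1 gene and a methyltransferase, rose by 0.49 ± 0.056, 0.63 ± 0.096 and 1.65 ± 0.19. In the BAF remodelling complex Smarca4 and Smarcc1 rose by 0.31 ± 0.061 and 0.43 ± 0.058, and their alternatives Smarca2 and Smarcc2 fell (-0.57 and -0.63). Of its 23 tested genes 7 rose, 4 fell and 12 did not pass, where 32.7% of all tested genes rose and 32.7% fell, and most of its other subunits thus did not pass; leaving out induced library 2 and uninduced library 3 gave 7 falls.

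Markers of other cell types were checked beside these lists, where 32.7% of all tested genes rose and 32.7% fell. No uninduced read was found for 3 of 9 tested trophoblast, 1 of 10 endothelial and 1 of 18 keratinocyte markers. Such genes could be tested only through reads in libraries with doxycycline, so these counts describe the lists and do not set them apart. Stratified keratinocyte markers were summed at 37.4 to 43.2 CPM in uninduced and 2062 to 2326 CPM in induced libraries, 16 of 18 tested rose and 2 did not pass, but Trp63 did not rise and Lor, Lce1a1 and Calml3 had under 10 reads. Trophoblast markers were summed at 60.9 to 66.3 CPM and 268.4 to 323.6 CPM; 7 of 9 tested rose and 2 fell, Tead4 went from 10.2 to 10.9 CPM to 60.2 to 71.5 CPM, Cdx2 and Gcm1 had under 10 reads and Tpbpa had none. Germline markers were summed at 3.81 to 6.08 CPM and 68.4 to 82.7 CPM, most of it Piwil2 (57.0 to 69.5 CPM after induction). All 6 tested germline markers rose, each by at least 2-fold. Genes this rare in uninduced cells may have entered the test only through libraries with doxycycline, so this count does not set the list apart. The other 12 of 18 had too few reads to test, and Mael, Tex101 and Stk31 had no induced read. Macrophage markers were summed at 11.1 to 14 CPM and 64.2 to 74.0 CPM: 4 of 7 tested rose, 1 fell and 2 did not pass, Laptm5 held most of it, and Aif1, Cx3cr1, Fcer1g, Tyrobp, C1qa and C1qb had under 10 induced reads. Endothelial markers were summed at 64.2 to 68.3 CPM and 120.1 to 134.2 CPM, with 6 of 10 rising and 2 falling, while Cdh5, Emcn and Cldn5 had under 10 reads.

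Muscle, adipocyte and cartilage markers gave no shared rise. Muscle markers were summed at 30 to 37.7 CPM and 31.6 to 36.7 CPM, with 4 of 8 rising, 2 falling and Myod1, Myog and Myf5 without an induced read. Adipocyte markers went from 41.6 to 49.6 CPM to 12.8 to 13.9 CPM; 4 of 5 fell, and Lpl, a lipase of fat cells, fell by 2.52. Of cartilage and bone markers 6 of 8 fell and 2 rose, and they were summed at 2515 to 2972 CPM and 2251 to 2558 CPM. Neural markers were summed at 240.8 to 275.6 CPM and 387.8 to 488.8 CPM, with 6 of 8 rising and 1 falling. Mbp was up by 4.96 ± 0.16, and Sox10 was without an induced read. Of these 8 neural markers 2 had no uninduced read and could be tested only through reads in libraries with doxycycline. Primitive endoderm markers fell in 5 of 10 cases, rose in 4 and did not pass in 1, summed at 1807.5 to 1834 CPM and 975.9 to 1193 CPM, and Hnf4a had no induced read. Mesoderm markers were summed at 3.43 to 4.87 CPM and 2.91 to 3.62 CPM. What part such cells have in the epithelial, lysosome and stem cell lists was not tested.

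Some genes that rose strongly lay next to each other. Taking tested genes in chromosome order, 40 runs of at least 3 neighbours had changed by at least 4-fold in the same direction; all 40 rose. Of all tested genes 8.48% rose and 0.93% fell by that much, so runs of falls had few genes to form from. Of the 146 genes in the runs 36 had no uninduced read and 93 had fewer than 10, and genes this rare could enter the test only through their reads in libraries with doxycycline. The longest lies on chromosome 15 (101349571 to 102032026, coordinates as deposited, genome build not stated) and holds 12 genes, among them Krt80, Krt7, Krt84, Krt6b, Krt6a, Krt5, Krt1, Krt8 and Krt18, with log2 changes of 3.16 to 12.88. A run of 6 on chromosome 11 (100117327 to 100269871) holds Krt13, Krt19, Krt14, Krt16, Krt17 and Krt42, the acidic keratins. On chromosome 7, 6 kallikreins from Klk14 to Klk9 rose together, among them Klk14 from 0.187, 0.450 and 0.712 CPM to 52.6, 61.8 and 73.7 CPM. The desmosomal cadherins Dsc3, Dsc2, Dsg1a, Dsg1b, Dsg3 and Dsg2 form a run on chromosome 18, and G6b with Ly6g6c, Ly6g6d, Ly6g6e and Ly6g6f a run on chromosome 17. Levels within a run differed widely: in the same run, induced Krt8 had 942.1 to 1188 CPM and induced Krt83 1.29 to 2.55 CPM. Reads of closely similar keratins such as Krt6a and Krt6b may be split uncertainly.

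**Figure D5:**
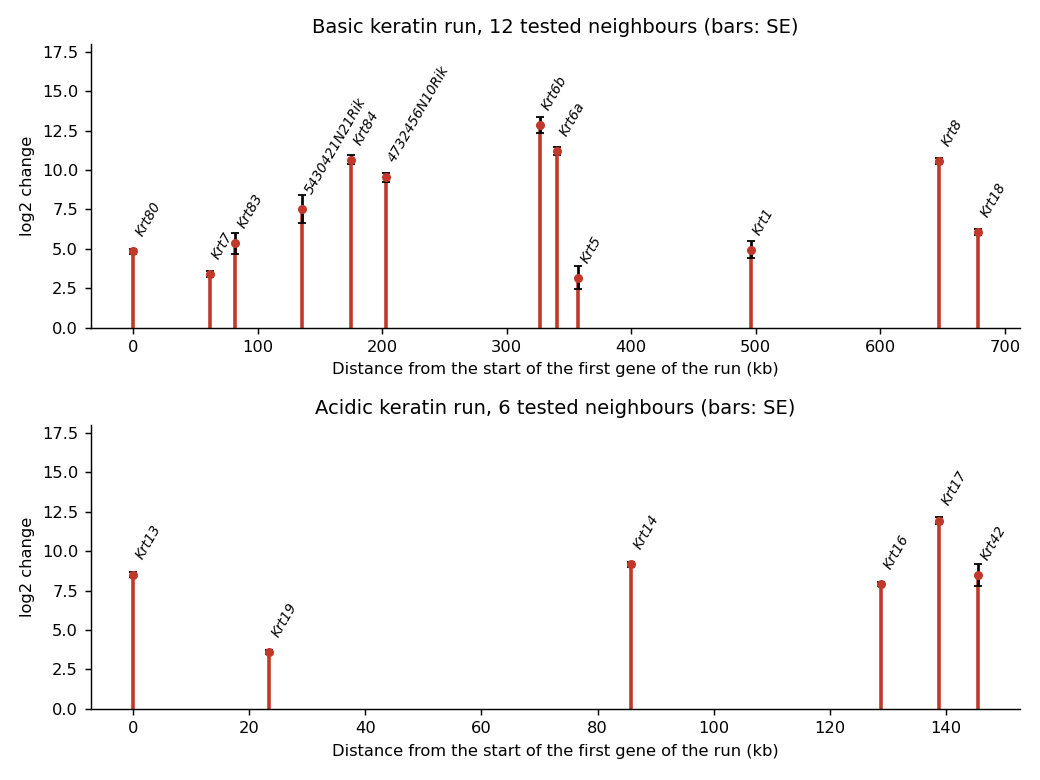
Stems give the log2 change (point, with SE bars) of each tested gene in the keratin runs on chromosomes 15 and 11, placed by distance in kb from the start of the run's first gene. All 12 and all 6 genes are above 3, with Krt5 lowest (3.16) in the first and Krt19 (3.59) in the second.

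A few of these genes were also read in the induced cells with the other hairpins, which are not part of the test above, and the values are given side by side only (mean ± SD, n = 3). Krt8 had 1057 ± 123.5 CPM with the scrambled hairpin, 1016 ± 80.9 CPM with the Trim28 hairpin and 644.5 ± 72.9 CPM with both hairpins. Cdh1 had 343.0 ± 40.6, 389.7 ± 20.6 and 226.2 ± 32.8 CPM in the same order. Thbs1 had 2601 ± 309.1, 5044.5 ± 442.6 and 5676 ± 463.1 CPM, below the 9373 CPM of the lowest uninduced library. Among the other large losses, mean CPM with the Trim28 hairpin was also above the scrambled mean for Fn1, Vim and Sparc. It was below that mean for Lox (623.5 against 1116 CPM), Col1a2, Col1a1, Timp2, Bgn and Timp3. Thbs1 thus does not stand for the genes that fell.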

How the data were processed

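RNA from 12 libraries of mouse cells, extracted with Trizol and prepared with TruSeq kits per the labels' protocols, was counted per gene. The authors deposited raw read counts of 24207 genes, 1 column per library; the submitters' processing notes name TopHat2 2.0.12, Bowtie 1.1 and HTSeq. The genome build, the annotation and any use of strand in counting are not given in the sources used here, so reads of overlapping antisense genes cannot be told apart. From the deposited counts, edgeR 4.0.16 (R 4.3.3) computed TMM factors, kept 14520 genes by filterByExpr (minimum count 10, minimum total count 15) and ran the quasi-likelihood test over all 12 libraries and 4 groups, with Benjamini-Hochberg adjustment over all tested genes. Genes were called at an adjusted p under 0.05. Levels (CPM) are reads per 1e6 of the TMM-scaled library, and per-kilobase levels use GENCODE M21 exons, found for 23882 identifiers. Floors are 3 counts; intervals and floors cover counting error only. The test was checked on simulated data with far fewer changed genes, balanced in direction, and 1 dispersion for all genes. That check does not cover the unbalanced changes or the spread between libraries seen here.

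The gene lists and the comparison were chosen with earlier results of these data known. Genes are named by rule: in each list up to 3 members of smallest p in the direction most took, 1 that went against it, and members of textbook role; in the whole comparison the 10 largest gains and losses of CPM, the 6 largest rises and falls, genes with no read in 1 group, and members of the 5 longest runs of neighbours. Predicted genes were left out, and some genes under the rule are not reported here. Alternatives were other normalizations, filters, DESeq2 1.42.0, limma 3.58.1 (voom), the 6 libraries alone, a replicate block and leaving out libraries.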

Additional observations from a re-analysis of the deposited data

How the results depend on the processing

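The 15 alternatives (14 planned and 1 chosen after the data were seen) kept the 4 counts of genes within 1.5 times of the values reported. Single genes were followed for a set of 254, which lacks Bmp5, Bmp6 and Bmp7, and none of the set reversed. DESeq2 called 4852 rises and 4326 falls, limma-voom 4736 and 4785, scaling by library totals 5829 and 3619, no filter 5090 and 4919, a stricter filter 4072 and 4253, and the 6 libraries alone 4456 and 4039. Leaving out each library in turn gave 4413 to 4820 rises and 4234 to 4724 falls, and without induced library 2 and uninduced library 3 together there were 4804 and 4735. With the replicate number as a block there were 4774 rises and 4798 falls. Same-numbered libraries deviated with correlations of 0.351, -0.385 and -0.283, and not every library correlated best with its own number. Deviations from means of 3 libraries cannot show whether same-numbered libraries came from the same culture, so pairing remains unknown. Scaling by library totals also turned oxidative phosphorylation genes to 21 rises and 12 falls and mitochondrially encoded genes to 3 and 0. Of 242 genes of the followed set with a call 239 kept it in every alternative run. Klf5 lost it without uninduced library 1, and Col1a1 and Spp1 lost it under 6 and 7 alternatives. Of the followed genes without a call, Cd151, Trp53, Col3a1 and Snai1 gained one in some. Depth limits rare genes: a count of 3 reads stood for 0.156 to 0.252 CPM.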

Other observations

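Gene types other than protein-coding genes were counted by the same test. Of 137 tested antisense genes 17 (12.4%) rose and 44 (32.1%) fell, and of 177 processed transcripts 30 (16.9%) rose and 64 (36.2%) fell. Among 301 tested long intergenic noncoding RNAs 76 rose and 84 fell, of which 66 and 39 did so by at least 2-fold. Protein-coding genes rose in 33.5% and fell in 33.0% of 13686 cases. These shares are descriptions of genes that passed the filter on low counts. No use of strand in counting is stated, so reads of antisense genes and of their partners cannot be told apart.

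Families defined by the first letters of the gene symbol, with at least 15 tested members, were counted as well, and those given here were picked after their values were seen. Of all tested genes 32.7% rose and 32.7% fell. Of 21 tested genes starting with Nup, most of them subunits of the nuclear pore, 17 rose, 1 fell and 3 did not pass, with a median log2 change of 0.52. Of 28 genes starting with Polr, subunits of RNA polymerases, 17 rose, 2 fell and 9 did not pass. Of 18 genes starting with Atp6v, subunits of the pump that acidifies lysosomes, 14 fell, 3 rose and 1 did not pass, with a median of -0.35. Of 60 genes starting with Rab, which steer vesicles, 34 fell, 13 rose and 13 did not pass, and of 27 starting with Sec 16 fell, 5 rose and 6 did not pass. No difference between families was tested.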
